A study of Mus musculus with 4 samples.

Results

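Peaks of RUNX1 and of the histone mark H3K27me3 were examined at 37 mouse genes of the Fox, Sox and T-box families of developmental transcription factors, out of 21938 protein-coding genes of the mm10 annotation. The genes came from a fixed list of 15 Fox, 11 Sox and 11 T-box genes. A peak was given to a gene where its summit, the base of highest signal, lay in the gene body or within 5 kb of it. By textbook role, 7 of the genes were grouped as blood genes and 30 as genes of other lineages: 4 of endoderm, 9 of the nervous system and neural crest, 16 of mesoderm, heart, limb and skeleton, and 1 of the gonad. ChIP-seq, the sequencing of DNA recovered with an antibody from crosslinked chromatin, was available from 4 libraries. All came from mouse embryonic stem cells with the genotype Tet-on dominant-negative FOS, grown in culture to floating haematopoietic progenitors at day 2. In these cells doxycycline (DOX) switches on dnFOS, a peptide that blocks the AP-1 factor family, and the study asked how loss of AP-1 activity alters RUNX1 binding. The cells without DOX carry the same transgene.

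There was 1 library for each antibody and condition. No difference between conditions could therefore be tested, and every comparison between libraries is a comparison of 2 peak lists. The RUNX1 libraries are named here by their labels, -DOX and +DOX. A run name stored in each of their lists gives the other treatment, so each direction between them is reversed if the labels were exchanged. The H3K27me3 libraries are named by their titles, untr and DOX. Their treatment labels state the opposite of the titles, and no effect of DOX on the mark is given. The protocol filed with them names an antibody against RUNX1, whereas their antibody label is H3K27me3. The lists held 6356 (H3K27me3 titled untr), 7233 (H3K27me3 titled DOX), 18389 (RUNX1 labelled -DOX) and 21831 (RUNX1 labelled +DOX) peaks on the assembled chromosomes. The depth of the libraries is unknown, so the strength of a peak is given as its percentile by -log10 q within its own list. Ranked by fold enrichment instead, the H3K27me3 peaks at the 37 genes stood lower. Their median percentile was 23.1 (titled untr) and 14.9 (titled DOX) by fold, against 37.5 and 45.5 by -log10 q. For the RUNX1 peaks it was 40.1 (labelled -DOX) and 35.3 (labelled +DOX) by fold, against 36.6 and 32.1. No expression was measured. As a check of the cell label, 10 loci of haematopoietic progenitors (Runx1, Spi1, Tal1, Gfi1b, Myb, Kit, Ptprc, Itga2b, Lyl1 and Lmo2) were examined. RUNX1 peaks were called at 7 of them in the list labelled -DOX and at 9 in the list labelled +DOX, with Kit in neither, against 53.5% and 57.1% of all protein-coding genes. The interval for 7 of 10 (39.7 to 89.2%) contains its share of 53.5%. The interval for 9 of 10 (59.6 to 98.2%) lies just above its share of 57.1%. The 2 lists differ in this, and with 10 loci the check says little. Only Myb had an H3K27me3 peak in the list titled untr, and only Lyl1 in the list titled DOX.

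Fox proteins bind DNA through a forkhead domain, Sox proteins through an HMG box and T-box proteins through the T domain, and each family supplies regulators to many tissues. H3K27me3 is laid down by the Polycomb repressive complex PRC2. It typically covers the CpG-rich starts of developmental regulators that are silent in a given cell. RUNX1 is the DNA-binding partner of CBFb and is required for the formation of the first blood stem and progenitor cells from endothelium.

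To show what lay under the peaks, sequence was read from the mouse genome GRCm38.p6 of RefSeq, on the plus strand. The first set holds the 200 bases at RUNX1 summits of 4 genes, 1 summit from each, taken from the list labelled -DOX. They were picked because they hold a RUNX or AP-1 motif, which most RUNX1 summits of the 37 genes lack. Capitals mark the RUNX hexamer TGTGGT, read as ACCACA on the other strand, and the AP-1 heptamer TGANTCA. Sox4, Sox6 and Eomes are blood genes and Foxc1 is a mesodermal gene that also carried H3K27me3.
Sox4, chr13:28958267-28958466: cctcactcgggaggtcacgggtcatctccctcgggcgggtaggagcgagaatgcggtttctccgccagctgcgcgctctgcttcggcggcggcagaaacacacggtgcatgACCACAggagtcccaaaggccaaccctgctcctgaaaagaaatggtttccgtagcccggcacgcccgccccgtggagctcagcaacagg
Sox6, chr7:115539209-115539408: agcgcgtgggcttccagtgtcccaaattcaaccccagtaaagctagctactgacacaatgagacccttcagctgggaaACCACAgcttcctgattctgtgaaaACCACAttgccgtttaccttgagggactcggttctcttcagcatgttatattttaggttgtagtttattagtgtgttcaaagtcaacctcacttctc
Eomes, chr9:118488245-118488444: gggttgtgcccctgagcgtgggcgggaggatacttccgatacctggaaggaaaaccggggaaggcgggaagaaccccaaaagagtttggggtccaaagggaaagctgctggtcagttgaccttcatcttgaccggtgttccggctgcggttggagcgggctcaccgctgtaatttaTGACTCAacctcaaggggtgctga
Foxc1, chr13:31806300-31806499: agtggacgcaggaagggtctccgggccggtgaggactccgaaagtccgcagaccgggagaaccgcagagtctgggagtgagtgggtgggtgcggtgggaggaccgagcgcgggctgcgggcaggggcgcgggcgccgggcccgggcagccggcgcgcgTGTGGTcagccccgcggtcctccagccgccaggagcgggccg

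The second set shows sequence at loci with and without the Polycomb mark, with each CpG in capitals. The windows are not matched in position, since Foxe1's lies in its coding exon and the others upstream of a gene, and they do not represent marked and unmarked genes at large. It holds the 120 bases at the strongest H3K27me3 summit of Foxe1 and of Sox2 in the list titled untr, with 20 and 21 CpGs. Beside them stand the 120 bases upstream of Sox14 and of Tbx6, which had no H3K27me3 peak, with 11 and 2 CpGs.
Foxe1, chr4:46344809-46344928: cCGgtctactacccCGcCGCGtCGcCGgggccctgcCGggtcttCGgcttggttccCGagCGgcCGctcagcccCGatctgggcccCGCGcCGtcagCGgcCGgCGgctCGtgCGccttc
Sox2, chr3:34650283-34650402: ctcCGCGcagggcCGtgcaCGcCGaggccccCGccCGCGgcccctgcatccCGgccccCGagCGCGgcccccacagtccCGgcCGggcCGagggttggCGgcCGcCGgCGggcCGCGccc
Sox14, chr9:99876171-99876290: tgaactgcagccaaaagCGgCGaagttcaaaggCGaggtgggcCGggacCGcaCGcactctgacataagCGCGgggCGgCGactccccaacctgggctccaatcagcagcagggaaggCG
Tbx6, chr7:126781363-126781482: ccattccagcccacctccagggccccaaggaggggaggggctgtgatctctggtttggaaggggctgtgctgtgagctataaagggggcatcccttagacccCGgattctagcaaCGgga

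H3K27me3 was called at most of these genes. At the deposited threshold the genes of other lineages carried it more often than the blood genes. In the list titled untr, 31 of the 37 genes had a peak (83.8%, 95% Wilson interval 68.9 to 92.3), against 16.1% of all protein-coding genes. In the list titled DOX, 29 had one (78.4%, 62.8 to 88.6), against 16.7%. All of those 29 genes were also among the 31, and 13.2% of protein-coding genes had a peak in both lists. Sox6 and Tbx5 had the mark only in the list titled untr. The 6 genes with no H3K27me3 peak in either list were Foxo1, Foxo3 and Sox4 of the blood genes, Tbx6 and Tbx20 of the mesodermal genes, and the neural gene Sox14. The count was 27 of 30 for genes of other lineages in the list titled untr (90%, 74.4 to 96.5) and 26 of 30 in the list titled DOX (86.7%, 70.3 to 94.7). It was 4 and 3 of the 7 blood genes (57.1%, 25.0 to 84.2, and 42.9%, 15.8 to 75.0). The intervals of the gene groups overlap, and they cover counting error over genes only. They take the genes as independent, although some are neighbours, such as Foxf1, Foxc2 and Foxl1, or Tbx2 and Tbx4. The counts depended on the threshold. With a minimum -log10 q of 5, 27 and 22 of the 37 genes had the mark, against 12.7% and 11.0% of all protein-coding genes. They were 3 and 2 of the 7 blood genes and 24 and 20 of the other 30. With the 5000 strongest peaks of each list the counts were 29 and 25 of 37, against 13.9% and 13.1%. Of these, 3 and 2 were blood genes and 26 and 23 genes of other lineages. With a minimum -log10 q of 10, 10 and 3 of the 37 genes had the mark, against 5.57% and 3.77% of all protein-coding genes. These were 2 and 0 of the 7 blood genes and 8 and 3 of the other 30. At this threshold the contrast between the groups was not seen in the list titled untr, and few genes were left in the list titled DOX. The families resembled each other, with 13 of 15 Fox, 9 of 11 Sox and 9 of 11 T-box genes marked in the list titled untr.

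RUNX1 was called at about as many of the 37 genes as in the background. In the list labelled -DOX, 19 of the 37 genes had a peak (51.4%, 35.9 to 66.6), against 53.5% of all protein-coding genes. In the list labelled +DOX there were 20 (54.1%, 38.4 to 69.0), against 57.1%. With a minimum -log10 q of 10 the counts were 9 and 6 of 37, against 29.5% and 34.5%. Of the 7 blood genes, 6 had a RUNX1 peak in each list (85.7%, 48.7 to 97.4). Of the 30 genes of other lineages, 13 had one in the list labelled -DOX (43.3%, 27.4 to 60.8) and 14 in the list labelled +DOX (46.7%, 30.2 to 63.9). The intervals of the groups overlap. Long genes offer more room for a summit, and the blood genes had a median length of 84886 bp, against 5562 bp for the genes of other lineages and 17425 bp for all protein-coding genes. With peaks counted only within 5 kb of a transcription start, the counts were 29 and 28 of 37 for H3K27me3 and 18 and 18 for RUNX1. Every annotated start opened such a window, so genes with many starts still had more room. Among the blood genes Foxp1 has 22 starts and Sox6 has 13, and among the others Sox5 has 12. The shares of all protein-coding genes in these windows were 13.5% and 13.1% for H3K27me3 and 47.7% and 51.5% for RUNX1. In the same windows 6 and 5 of the 7 blood genes and 12 and 13 of the other 30 had a RUNX1 peak. With the minimum -log10 q of 10, in the gene body and 5 kb, 4 and 2 of the 7 blood genes and 5 and 4 of the other 30 had one.

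**Figure D1:**
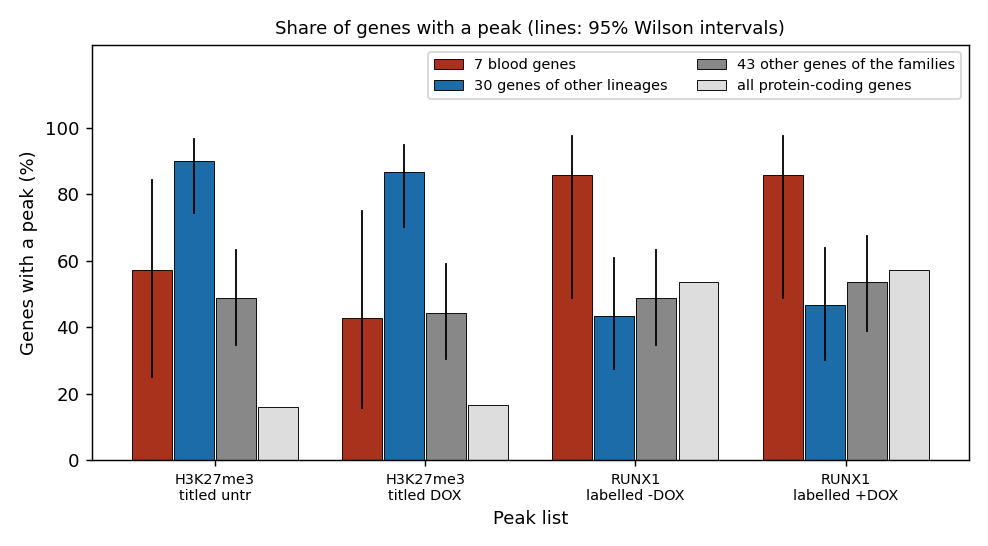
Share of genes (y axis, percent) with a peak in each of the 4 lists (x axis) for the 7 blood genes, the 30 genes of other lineages, the 43 other genes of the families and all protein-coding genes; lines are 95% Wilson intervals. H3K27me3 bars of the genes of other lineages stand at 90% and 86.7%, and RUNX1 bars of the blood genes at 85.7% in both lists.

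**Figure D2:**
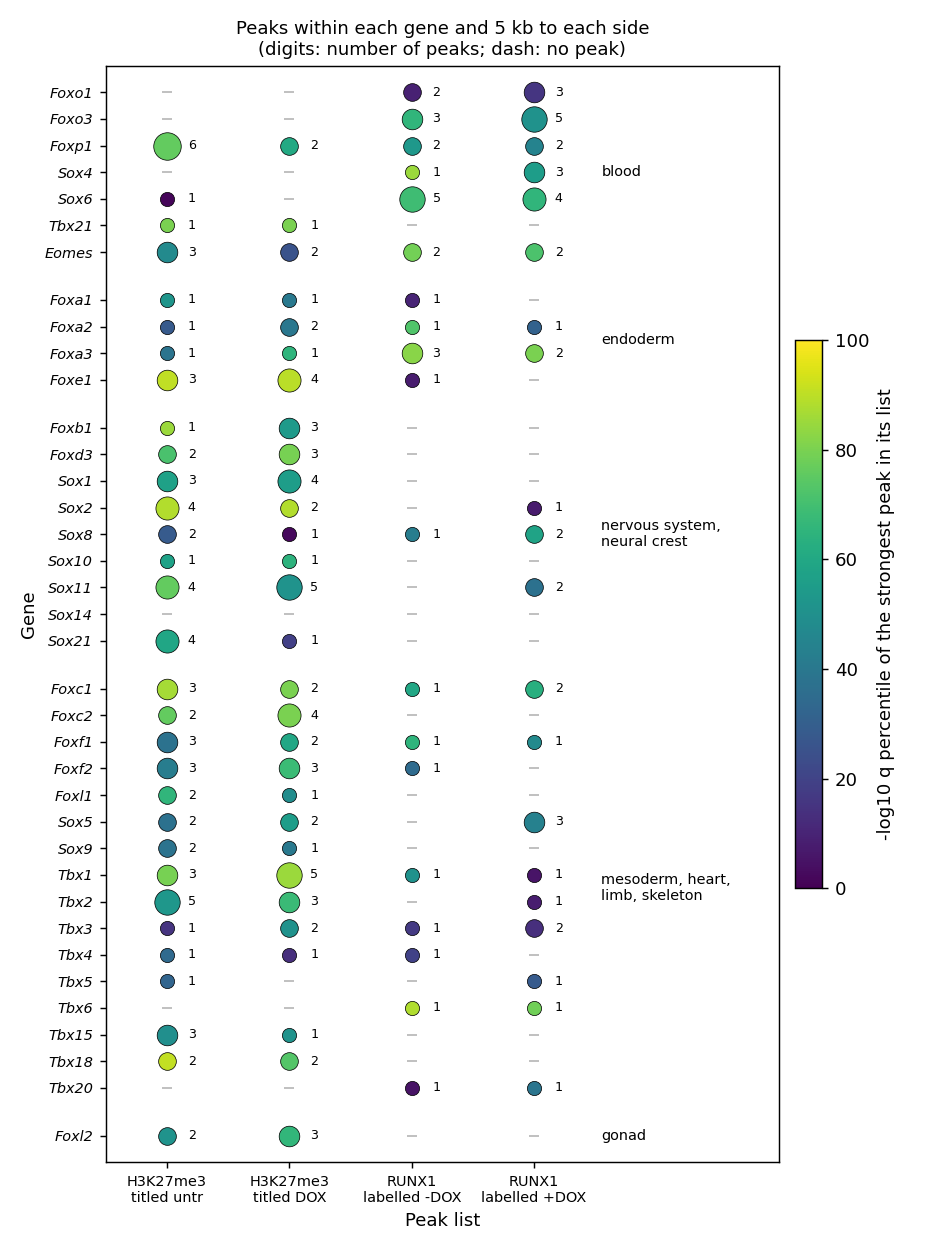
Peaks of each of the 37 genes (y axis, grouped by lineage) in the 4 lists (x axis). Digits and point size give the number of peaks, colour gives the -log10 q percentile of the strongest peak within its list, and a dash marks no peak. The neural block is filled in the H3K27me3 columns at 8 of 9 genes and nearly empty in the RUNX1 columns, and Sox14 is empty in all 4.

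Among the blood genes, Foxo1, Foxo3 and Sox4 had RUNX1 peaks and no H3K27me3. Foxo1 (chr3:52268336-52353221, plus strand) and Foxo3 (chr10:42181841-42276755, minus strand) encode forkhead factors that PI3K-AKT signalling keeps out of the nucleus, and Foxo3 is known for holding blood stem cells in quiescence. Foxo1 had 2 RUNX1 peaks in the list labelled -DOX and 3 in the list labelled +DOX. All were weak, with the strongest at percentiles 8.99 and 15.3. The strongest lay 166 and 549 bp into the gene. Foxo3 had 3 peaks in the list labelled -DOX, at its start (27 bp upstream), 1418 bp upstream and 955 bp into the gene, in an intron. The list labelled +DOX had the same 3 to within 200 bp and 2 more in introns, 37732 and 63362 bp from a start. The intronic peak was the strongest in each list, with a 4.52-fold enrichment over the local background and a -log10 q of 11.7 in the list labelled -DOX (percentile 65.4), and 4.04-fold and 8.86 in the list labelled +DOX (percentile 50.9).

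Sox4 (chr13:28948919-28953713, minus strand) encodes an HMG-box factor needed by lymphoid progenitors. It had 1 RUNX1 peak in the list labelled -DOX, 4654 bp upstream of the start and 556 bp wide, with a 7.83-fold enrichment and a -log10 q of 22.3 (percentile 84.9). In the list labelled +DOX the peak at this place had a 5.14-fold enrichment and a -log10 q of 9.64 (percentile 55.1). No other blood gene reached percentile 84.9 in the list labelled -DOX. The list labelled +DOX also had a peak in the coding exon and another in the 3' UTR of Sox4, at percentiles 24.0 and 33.0, that were not in the other list. The Sox4 sequence printed above, from the upstream summit, holds 1 RUNX hexamer. The summit in the list labelled +DOX was placed 4537 bp upstream, and the 200 bases around it hold none.

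Sox6 (chr7:115470872-116038796, minus strand), which acts in red cells to silence embryonic globin genes, had RUNX1 peaks in introns throughout. There were 5 in the list labelled -DOX and 4 in the list labelled +DOX, and 4 of the 5 had a summit of the other list within 200 bp. The strongest differed between the lists. It lay at position 115539309 in the list labelled -DOX (percentile 68.8, against 36.7 in the other list) and at 115550667 in the list labelled +DOX (percentile 65.6, against 41.9). The former is the Sox6 sequence printed above, with 2 RUNX hexamers in its 200 bases in both lists. A peak at 115941917 held 2 GATA hexamers (AGATAA) and 2 ETS hexamers (AGGAAG) and had percentiles of 38.8 and 58.2. The only H3K27me3 peak of Sox6 stood at percentile 1.46 of the list titled untr, in an intron 1486 bp from the nearest start of the gene.

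Foxp1 (chr6:98925338-99522721, minus strand), a forkhead factor of B cell development, carried both marks. Its RUNX1 peaks lay at its most upstream start (percentiles 53.4 and 44.7) and at an internal start in a coding exon (34.4 and 13.6), in both lists. The 200 bases at the internal summit held 3 RUNX hexamers in the list labelled -DOX and 1 in the list labelled +DOX. H3K27me3 had 6 peaks at Foxp1 in the list titled untr and 2 in the list titled DOX, all within 678 bp of an annotated start, and only 1 of the 6 had a summit of the other list within 200 bp. The strongest reached percentiles 75.8 and 60.3. Foxp1 has 22 annotated starts, more than any other of the 37 genes.

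The T-box genes of the blood group differed from each other. Tbx21 (chr11:97098071-97115331, minus strand) encodes T-bet, the regulator of type 1 helper T cells, and Eomes (chr9:118478212-118486132, plus strand) its relative in NK and memory T cells and in early mesoderm. Tbx21 had no RUNX1 peak in either list. It had 1 wide H3K27me3 peak in each list over its coding exon near the start, 941 bp wide in the list titled untr and 688 bp wide in the list titled DOX, at percentile 80 of both. Eomes had RUNX1 and H3K27me3 peaks in all 4 lists. Its RUNX1 peak downstream of the gene, 9484 bp from the nearest start in the list labelled -DOX, had a 7.40-fold enrichment and a -log10 q of 17.5 (percentile 78.9). In the list labelled +DOX it had 7.21-fold and 14.4 (percentile 71.7). The Eomes sequence printed above comes from this peak. It holds the only AP-1 heptamer among the summits of the 37 genes, and the window of the other list, whose summit lay 9575 bp from the start, holds it too. A weaker RUNX1 peak in the coding exon near the start (percentiles 23.5 and 8.60) overlapped H3K27me3 peaks there.

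**Figure D3:**
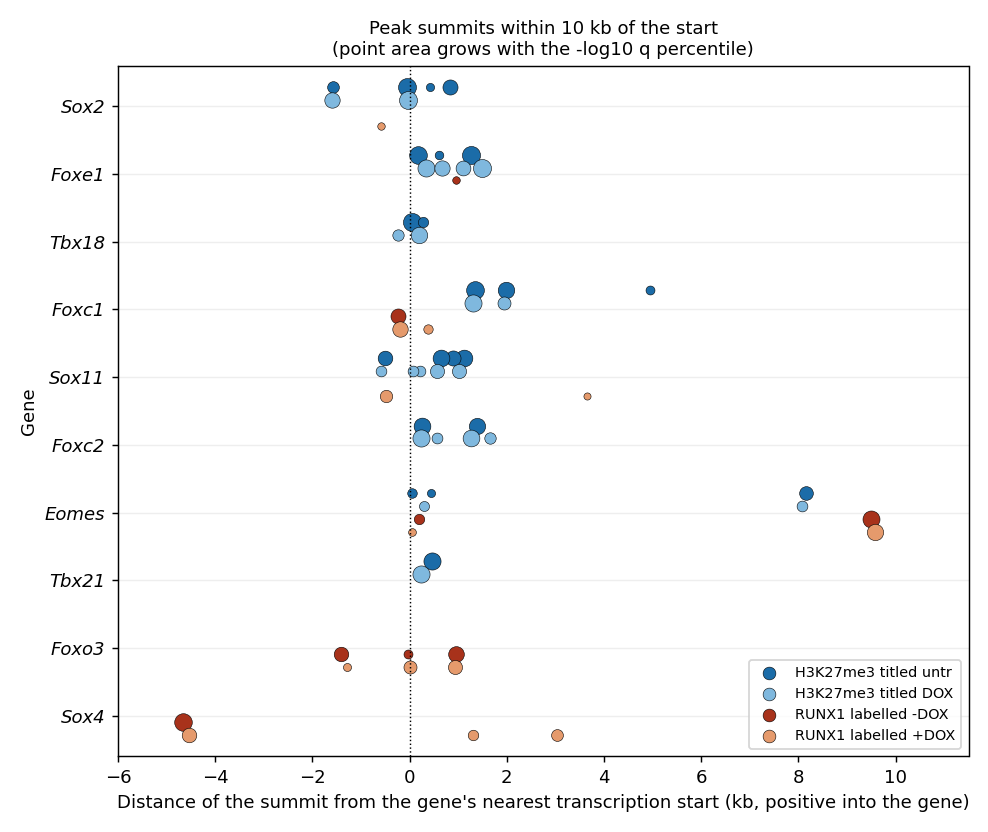
Peak summits within 10 kb of the start (x axis, kb from the gene's nearest transcription start, positive into the gene) for 10 genes (y axis); colours give the 4 lists and point area grows with the -log10 q percentile. H3K27me3 summits gather from the start to about 2 kb into the gene, while the strongest RUNX1 peaks of Sox4 and Eomes of the list labelled -DOX lie 4654 bp upstream and 9484 bp downstream of a start.

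The endodermal genes all carried H3K27me3 in both lists, and all 4 had a RUNX1 peak in the list labelled -DOX, against 2 in the list labelled +DOX. Foxe1 (chr4:46343609-46346412, plus strand), a factor of thyroid development, had the highest H3K27me3 rank of the 37 genes, with a mean of 90 over the percentiles of its strongest peak in each list. It had 3 peaks in the list titled untr and 4 in the list titled DOX, from the 5' UTR to the coding exon. A weak RUNX1 peak in the list labelled -DOX (3.72-fold, -log10 q 3.29, percentile 7.70) overlapped them. Foxa1, Foxa2 and Foxa3 encode pioneer factors that open chromatin in liver and gut. Foxa1 (chr12:57540628-57546916, minus strand) had a weak intronic RUNX1 peak only in the list labelled -DOX (percentile 9.88), and its H3K27me3 peaks in the 2 lists (percentiles 52.3 and 40.4) lay at different places.

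Foxa2 (chr2:148042877-148046969, minus strand) had an intronic RUNX1 peak within 200 bp of a start in both lists, with a 7.14-fold enrichment and percentile 72.4 in the list labelled -DOX, against 4.76-fold and 31.2 in the list labelled +DOX. In the latter list 59.5% of its bases were soft-masked as repeats. H3K27me3 at Foxa2 reached percentiles 27.9 and 39.7. Foxa3 (chr7:19013284-19023538, minus strand) had strong RUNX1 peaks at percentiles 82.4 and 79.7, but these lay downstream of the gene with the nearest coding start that of Irf2bp1. Its other RUNX1 peaks lay within 213 bp of a start of Sympk. Its H3K27me3 peak sat in the 5' UTR of Foxa3 itself (percentiles 38.5 and 65.2).

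The neural and neural crest genes were marked by H3K27me3 at 8 of 9 in both lists, whereas RUNX1 was called at 1 of them in the list labelled -DOX (11.1%, 1.99 to 43.5) and at 3 in the list labelled +DOX (33.3%, 12.1 to 64.6). Sox2 (chr3:34650405-34652461, plus strand), a factor of pluripotent and neural progenitor cells, had 4 and 2 H3K27me3 peaks. The strongest lay 62 bp upstream of the start in the list titled untr (6.29-fold, -log10 q 16.1, percentile 88.3) and 28 bp upstream in the list titled DOX (6.13-fold, 13.5, percentile 88.4). Its single RUNX1 peak, 589 bp upstream and only in the list labelled +DOX, stood at percentile 7.23. Foxd3 (chr4:99656299-99658622, plus strand), a forkhead factor of neural crest, had H3K27me3 at percentiles 71.1 and 79.6 and no RUNX1. Foxb1 (chr9:69757710-69760940, minus strand), a forkhead factor of the developing brain, had it at 84.8 and 54.1 and no RUNX1.

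Sox11 (chr12:27334264-27342574, minus strand), a close relative of Sox4 that acts in neurons, had 4 H3K27me3 peaks in the list titled untr (strongest at percentile 76.1) and 5 in the list titled DOX (51.5). Each of the 4 had a summit of the other list within 200 bp. A RUNX1 peak 479 bp upstream, at percentile 37.3 and only in the list labelled +DOX, overlapped the upstream H3K27me3 peak of both lists. Sox8 (chr17:25565892-25570686, minus strand), a neural crest factor, was the only neural gene with RUNX1 in both lists, upstream of its start, with the strongest peaks at percentiles 41.8 and 58.2. Its H3K27me3 peaks were weak (28.3 and 2.27). Sox1, Sox10 and Sox21 had H3K27me3 in both lists, with strongest percentiles from 18.8 to 64.2, and no RUNX1. Sox14 (chr9:99874106-99876170, minus strand) had no peak of any list.

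The mesodermal genes carried H3K27me3 at 14 and 13 of 16, and RUNX1 at 8 and 9 of 16. Foxc1 (chr13:31806633-31812476, plus strand) and Foxc2 (chr8:121116171-121118895, plus strand) encode forkhead factors of paraxial mesoderm and of vessels, and they differed in RUNX1. Foxc1 had a RUNX1 peak 233 bp upstream of its start in the list labelled -DOX (5.38-fold, percentile 59.4) and 203 bp upstream in the list labelled +DOX (5.49-fold, percentile 63.0). Its sequence is printed above, with 1 RUNX hexamer in both lists. H3K27me3 at Foxc1 did not overlap it. Its strongest peaks lay in the coding exon, 1345 and 1314 bp into the gene, at percentiles 86.4 and 79.8. Foxc2 had H3K27me3 at percentiles 76.0 and 79.9 and no RUNX1. Foxf1 and Foxl1 are its neighbours, and the 3 genes lie within chr8:121084386-121130644. All carried H3K27me3 in both lists. Of these neighbours only Foxf1, a factor of visceral mesoderm, had RUNX1, 698 and 663 bp upstream (6.08-fold, percentile 64.9, and 5.39-fold, percentile 47.4), beside H3K27me3 at percentiles 37.5 and 59.5. Foxl1, a factor of gut mesenchyme, had H3K27me3 at percentiles 65.3 and 48.7. Foxf2 (chr13:31625816-31631403, plus strand), the relative of Foxf1, had a RUNX1 peak 6763 bp from its start only in the list labelled -DOX (percentile 34.4), and H3K27me3 at 41.8 and 68.3.

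Tbx18 (chr9:87702800-87731260, minus strand), a T-box factor of epicardium and somites, had the widest H3K27me3 peak of the 37 genes, 1216 bp in the list titled untr, at percentile 90.7. In the list titled DOX its strongest peak was 208 bp wide, at 73.1. It had no RUNX1 peak. Tbx1 (chr16:18580979-18590671, minus strand), needed for the pharyngeal arches and the outflow tract of the heart, had 3 and 5 H3K27me3 peaks with the strongest at percentiles 79.4 and 84.9. RUNX1 was called in both lists near the 3' end of Tbx1, at percentile 50.9 in the list labelled -DOX and 5.15 in the list labelled +DOX, with summits more than 200 bp apart. The weaker of them overlapped H3K27me3 peaks of both lists. Tbx2 (chr11:85832551-85841948, plus strand), a repressor in heart and limb, had 5 and 3 H3K27me3 peaks (strongest at 52.9 and 67.9) and a RUNX1 peak in the 5' UTR only in the list labelled +DOX (percentile 8.20), which overlapped an H3K27me3 peak. Its relative Tbx3 (chr5:119670669-119684724, plus strand) had RUNX1 in both lists, but at different places and weakly (17.1 and 13.6), beside H3K27me3 at 15.0 and 50.6.

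The limb genes Tbx4 (chr11:85886422-85916097, plus strand) and Tbx5 (chr5:119832668-119885219, plus strand) each had 1 intronic RUNX1 peak, Tbx4 only in the list labelled -DOX (percentile 19.6) and Tbx5 only in the list labelled +DOX (28.2). H3K27me3 stood at percentiles 34.2 and 13.6 for Tbx4 and, in the list titled untr alone, at 32.4 for Tbx5. Sox5 (chr6:143828425-144781977, minus strand), which acts with Sox9 in cartilage, had 3 RUNX1 peaks only in the list labelled +DOX, the strongest at percentile 43.5. One of them, deep in an intron, held 7 RUNX hexamers in 200 bases, more than at any other summit of the 37 genes. Another, at the start, overlapped an H3K27me3 peak. H3K27me3 at Sox5 reached 37.3 and 55.2. Sox9 and Tbx15, a factor of skeletal and muscle development, had H3K27me3 in both lists, with strongest percentiles from 38.1 to 51.5, and no RUNX1.

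Tbx6 and Tbx20 had RUNX1 in both lists and no H3K27me3. At Tbx6 (chr7:126781483-126785560, plus strand), a factor of presomitic mesoderm, the RUNX1 peaks had the highest percentile of all 37 genes in the list labelled -DOX (88.1, against 78.3 in the list labelled +DOX). They lay 4484 and 4462 bp upstream of Tbx6, 0 and 16 bp from a start of Ypel3. At Tbx20 (chr9:24718138-24774303, minus strand), a heart factor, they lay 159 and 129 bp upstream of its own start, at percentiles 4.74 and 38.9. Foxl2, the forkhead factor of the ovary and the only gonadal gene, had H3K27me3 at percentiles 51.5 and 65.9 and no RUNX1.

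Strong RUNX1 peaks were not more frequent at the 37 genes than over all protein-coding genes. In the list labelled -DOX the strongest peak stood at or above percentile 50 at 11 genes (29.7%, against 34.5% of all protein-coding genes). In the list labelled +DOX it did so at 8 (21.6%, against 38.5%). None reached percentile 90. Among the blood genes the counts were 5 and 4 of 7 (71.4% and 57.1%). For H3K27me3 they were 18 and 21 of 37, against 10.1% and 10.2% of all protein-coding genes. Over the genes that had a peak, the median percentile of the strongest one was 52.9 and 59.5 for H3K27me3 at the 37 genes, against 60.8 in both lists over all protein-coding genes. For RUNX1 the medians were 53.4 and 44.1, against 63.2 and 65.9.

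In the comparison of the RUNX1 lists, 15 of the 37 genes had a peak in both (40.5%), against 50.1% of all protein-coding genes. Peaks in exactly 1 list were found at 9 (24.3%, 13.4 to 40.1), against 10.4% of all protein-coding genes. Foxa1, Foxe1, Foxf2 and Tbx4 had them only in the list labelled -DOX, where the background is 3.37%. Sox2, Sox5, Sox11, Tbx2 and Tbx5 had them only in the list labelled +DOX, with a background of 7.02%. All 9 were genes of other lineages, and the strongest of their RUNX1 peaks stood at percentile 43.5. All 9 carried H3K27me3 in at least 1 list, but so did 27 of the 30 genes of other lineages, so this is near the share of that group. None of the 7 blood genes was among them at the deposited threshold and in these windows. Within 5 kb of a start Sox6 was called only in the list labelled -DOX, and with a minimum -log10 q of 10 so were Foxo3 and Sox4. Of the 15 genes with a peak in both lists, 11 had their strongest peak at a higher percentile in the list labelled -DOX, against 40.8% of all protein-coding genes with a peak in both. These are ranks within lists of different length and unknown depth, and the strongest peaks of a gene can lie at different places, so no difference in binding is read from the count. As examples chosen after their values were seen, with strongest peaks at the same place in both lists, the percentiles labelled -DOX and +DOX were 72.4 and 31.2 at Foxa2, 84.9 and 55.1 at Sox4, and 4.74 and 38.9 at Tbx20. Peaks that pass a threshold in 1 list only can miss it narrowly in the other, and with 1 library each the differences could not be set against replicate error.

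**Figure D4:**
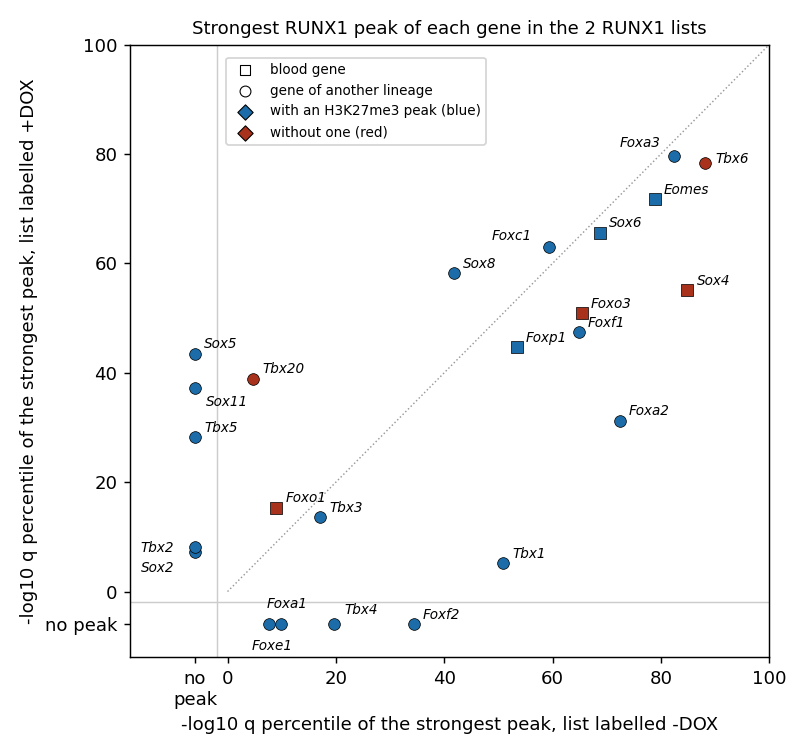
Strongest RUNX1 peak of each of the 24 genes with one, as its -log10 q percentile in the list labelled -DOX (x axis) and labelled +DOX (y axis); squares are blood genes, blue genes carry H3K27me3, and points on the margins have no peak in that list. The 9 genes on the margins are blue circles at or below percentile 43.5. The strongest peaks of a gene in the 2 lists can lie at different places, and the dotted line marks equal percentiles.

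A RUNX1 peak and an H3K27me3 peak were both present at 19 of the 37 genes (51.4%), against 13.3% of all protein-coding genes. The peaks themselves overlapped at few places. Of the RUNX1 peaks, 2 of the 30 at these genes in the list labelled -DOX (6.67%) and 5 of the 40 in the list labelled +DOX (12.5%) overlapped an H3K27me3 peak, against 8.02% and 7.26% of the whole lists, so that these shares were near those of all RUNX1 peaks. Seen from the mark, 6 of 73 (8.22%) and 4 of 65 (6.15%) H3K27me3 peaks overlapped a RUNX1 peak, against 25.6% and 24.5% of the whole lists. The genes with such overlaps were Eomes, Foxe1, Sox5, Sox11, Tbx1 and Tbx2. The mark without RUNX1 was seen at 12 genes (32.4%), against 6.30% of all protein-coding genes, and RUNX1 without the mark at 5 (13.5%: Foxo1, Foxo3, Sox4, Tbx6 and Tbx20), against 47.2%.

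The H3K27me3 calls at these genes were multiple and lay in the gene more than around it. In the list titled untr 21 genes (56.8%) had 2 or more peaks and 13 (35.1%) had 3 or more, against 7.12% and 2.80% of all protein-coding genes. In the list titled DOX they were 19 (51.4%) and 10 (27%), against 7.30% and 2.78%. These shares include genes without a peak. Among genes with a peak in the list titled untr, 21 of 31 had 2 or more, against 1561 of 3529 protein-coding genes. For 3 or more the counts were 13 of 31, against 614 of 3529. In the list titled DOX they were 19 of 29, against 1602 of 3658, and 10 of 29, against 610 of 3658. The peaks of the 2 lists were narrow, with a median width of 180 and 122 bp. Of the 73 and 65 peaks, 33 (45.2%) and 34 (52.3%) had their summit in a coding exon, against 21.2% and 18.1% of the whole lists. The whole lists are not limited to genes and 5 kb around them, so these shares are not like for like. The 37 genes were also short, with a median length of 6289 bp, against 17425 bp for all protein-coding genes. Downstream of the nearest start of the gene lay 58 and 52 of the peaks. The windows hold the gene and 5 kb after it but only 5 kb before it, so they offer more room downstream. No share over all genes was computed for this count. The share within 1 kb of the gene's own start was 58.9% and 56.9%, against 57.3% and 49.1% of the whole lists within 1 kb of any coding start. At these genes 53.4% of the peaks of the list titled untr and 70.8% of those of the list titled DOX overlapped a peak of the other, against 59.9% and 57.1% of the whole lists. A summit of both H3K27me3 lists within 200 bp of each other was present at 24 genes, and one of both RUNX1 lists at 13. The share of all protein-coding genes was not computed. By peaks, 38 of 73 (titled untr) and 38 of 65 (titled DOX) had such a partner, against 56.2% and 50.5% of the whole lists. For RUNX1 they were 21 of 30 (labelled -DOX) and 21 of 40 (labelled +DOX), against 71.4% and 60.1%.

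CpG content was computed as the number of CpGs over that expected from the C and G content, within 500 bp to each side of a transcription start, taking the highest value over the starts of a gene. The median was 0.771 for the 37 genes, against 0.627 for all protein-coding genes, 0.741 for those with a peak in both H3K27me3 lists and 0.574 for those with none. Among the 37 it was 0.804 for the 29 genes with the mark in both lists and 0.729 for the 6 without it. The 6 without the mark were not alike. Tbx6 had the lowest value of the 37 genes (0.330), while Foxo1 had the highest (1.05). Sox10 was marked in both lists at a value of 0.336. Marked Foxe1 (0.686) and unmarked Sox14 (0.662), whose sequences are printed above, had nearly the same value.

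**Figure D5:**
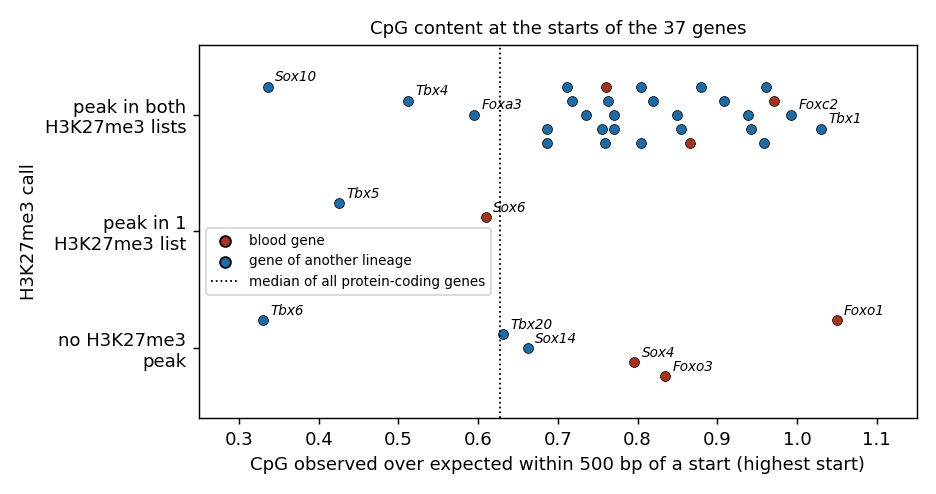
CpG observed over expected within 500 bp of a start (x axis, highest over the starts) for each of the 37 genes, by whether both, 1 or neither H3K27me3 list had a peak (y axis); red points are blood genes and the dotted line is the median of all protein-coding genes, 0.627. Values of marked and unmarked genes overlap, from 0.336 to 1.03 for genes marked in both lists and from 0.330 to 1.05 for unmarked genes.

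The motif content of the RUNX1 summits at these genes was close to that of the whole lists. The RUNX hexamer TGTGGT was found in the 200 bases at 6 of 30 summits in the list labelled -DOX (20%, against 26.3% of all summits) and at 9 of 40 in the list labelled +DOX (22.5%, against 28.6%). Of the blood gene summits, 4 of 15 and 6 of 19 held it. The AP-1 heptamer TGANTCA was found at 1 summit in each list (3.33% and 2.50%, against 4.85% and 6.16%), both downstream of Eomes. The ETS hexamer AGGAAG was at 9 (30%, against 28.9%) and 12 summits (30%, against 33.0%). The GATA hexamer AGATAA was at 4 (13.3%, against 12.4%) and 5 (12.5%, against 10.5%). Each motif was searched on both strands and counted without regard to overlap with another. A match describes the letters in the window and does not show that a factor bound there.

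The mark was less frequent among the 43 other protein-coding genes of the same families than among the 37. They had H3K27me3 at 21 (48.8%, 34.6 to 63.2) and 19 (44.2%, 30.4 to 58.9) and RUNX1 at 21 (48.8%) and 23 (53.5%). The genes of this group named here were chosen after their values were seen. Foxd1, Foxe3, Foxn4, Sox3, Sox7, Sox18 and T (Brachyury) had H3K27me3 in both lists and no RUNX1. Foxk1, Foxn3, Foxo4 and Sox12 had RUNX1 in both lists and no H3K27me3. Sox17, known from endoderm and haemogenic endothelium, had peaks of all 4 lists, as did Foxj1, Foxo6 and Foxq1.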

How the data were processed

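Peak lists were used as deposited, 1 per library, on mm10. The submitters' processing notes name Bowtie2 2.2.9 and MACS2 2.1.1. For RUNX1, though not for H3K27me3, the study's methods describe trimming with Trimmomatic, alignment with Bowtie2 in another version, removal of duplicates with Picard and calling with MACS2 at a q-value of 0.05. The authors' lists hold, per peak, the ratio of its signal to the surrounding background (fold), the -log10 of the p-value and of the q-value, and a deposited score not used here. Depth and input controls are not given in the sources used here.

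Here, summits on the assembled chromosomes were placed in gene bodies and 5 kb flanks of GENCODE vM21, and fold and -log10 q were turned into percentiles within each list. CpGs and motifs were read from RefSeq GRCm38.p6. Scripts used Python 3.11.15, numpy 2.4.6 and matplotlib 3.10.9 and were checked on simulated summits. Intervals are 95% Wilson intervals for counting error over genes, which they take as independent.

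The genes and lists were chosen with earlier results of these data known. All 37 genes were to be named, with full values for the 7 blood genes, the 10 genes ranked highest by H3K27me3, and those with RUNX1 in 1 list only or with both marks. Alternatives changed the window, the threshold, the list length, repeats, the rule for the gene and the distance between summits, and exchanged the RUNX1 labels. No replicate could be left out and no test was run, since there was 1 library per condition.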

Additional observations from a re-analysis of the deposited data

How the results depend on the processing

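Of 152 values recomputed under the alternatives, 126 stayed within 1.5 times the value given. None of the window, overlap, repeat, nearest-start or summit-distance settings moved a count over all 37 genes beyond that. Exchanging the RUNX1 labels swaps the 4 and 5 genes called in 1 list only by construction; these 2 values are among the 126 and say nothing about stability. Stricter thresholds did. At a -log10 q of at least 5, the number of genes with RUNX1 only in the list labelled -DOX went from 4 to 2. The 2 were Foxf2 and Tbx1, and Tbx1 had RUNX1 in both lists before. Genes with both RUNX1 and H3K27me3 went from 19 to 10. At a -log10 q of at least 10, H3K27me3 remained at 10 (titled untr) and 3 (titled DOX) genes, at 3 in both. RUNX1 remained at 9 (labelled -DOX) and 6 (labelled +DOX), and 1 gene had both marks. Only in the list labelled -DOX were 4 genes, the same count as before but other genes: Foxo3, Sox4, Foxa2 and Foxf1. Only in the list labelled +DOX was 1 gene (5 before), Sox8. All of these had RUNX1 in both lists at the deposited threshold. Of all protein-coding genes, 5.57%, 3.77%, 29.5% and 34.5% had such a peak in the 4 lists, in the same order. With the 5000 strongest peaks of each list, RUNX1 was left at 4 and 2 genes, against 20.2% of all protein-coding genes in each list. Of these genes, 2 were only in the list labelled -DOX and 0 only in the list labelled +DOX, and 2 had both marks. At these stricter settings no share of all protein-coding genes was computed for peaks in 1 list only, in both H3K27me3 lists or of both marks. Whether these counts fell more than the background is therefore not known.

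The lists have no depth and no replicate, so presence of a weak peak depends on the threshold, and absence says that none was called. No paired analysis was possible because there was 1 library per condition.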
